A study of Pisaster ochraceus with 50 samples.

Results

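Wasting was examined in the pyloric caecum of the ochre sea star, Pisaster ochraceus, by setting 2 symptomatic animals against 7 asymptomatic animals of the same size classes and feeding state. The libraries were chosen by their labels alone: pyloric caecum, medium or large size, not feeding, and collected at McClures Beach or Lifeboat House. These conditions were met by 9 of the 50 libraries of the series and by 9 of its 17 pyloric caecum libraries. Each library came from a different wild animal. The large symptomatic animal was brown, was collected at McClures Beach and was labelled batch 2. The medium symptomatic animal was orange, came from Lifeboat House and was labelled batch 5. The asymptomatic group held 3 medium and 4 large animals, 6 of them from McClures Beach and 1, a large purple animal, from Lifeboat House. By colour, 5 of the 7 were brown, 1 was orange and 1 was purple. By batch, 1 was in batch 2, 3 were in batch 3, 2 were in batch 4 and 1 was in batch 5. With 1 symptomatic animal in each size class, status was balanced over size, but each symptomatic animal was also the only one of its site, colour and batch among the symptomatic libraries.

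The pyloric caecum is the paired digestive gland that runs along each arm of a sea star. Its cells make digestive enzymes, take up nutrients and store lipid and glycogen. Sea star wasting is a condition named for its outward signs: lesions of the body wall, loss of turgor, shed arms and, in severe cases, disintegration. The caecum is an internal organ, so these libraries show what differed inside animals that were scored from the outside. The genes carry ID numbers that the files pair with no name, so no function or position is given for any of them. A pyloric caecum biopsy holds several cell types, and in such samples a lower value from fewer cells of a type cannot be told apart from one with less RNA per cell.

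Gene reads, the reads assigned to a gene, ranged from 721096 to 971069 in the asymptomatic libraries and were 935695 in the large and 1105416 in the medium symptomatic library. At these depths 1 read was worth about 1 CPM (reads relative to the library's total, scaled here by TMM factors that correct for composition). Between 70.5% and 78.8% of the counted reads fell outside annotated genes. Pairwise distances between libraries, the root mean square log2 difference of the 500 genes that differed most in each pair, ran from 2.28 to 2.88 among the asymptomatic animals, with a median of 2.62. Between symptomatic and asymptomatic animals they ran from 3.002 to 4.01, with a median of 3.63, so the ranges did not overlap. The 2 symptomatic libraries were 2.78 apart, within the asymptomatic range, although they differed in size class, site, colour and batch.

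The first comparison asked which caecum genes differed with wasting. Far more genes passed the test as higher in the symptomatic animals than as lower, and those that passed differed by large factors. Of 13364 genes tested, 407 passed a false discovery rate of 0.01 in edgeR's quasi-likelihood test (3.05%), 320 of them higher (2.39%) and 87 lower (0.651%). All 407 differed by more than 2-fold, with 1.66 as the smallest log2 fold change among those higher and -2.32 among those lower. A test of 2 against 7 libraries passes mostly large differences, and 14.4% of all genes tested differed by more than 4-fold. The genes that rose had a median log2 fold change of 3.08, and those that fell a median of -3.43, or -3.20 when genes with 3 or fewer reads in a group were set at their bound or ratio. Over all genes tested the median was -0.08, a value that the scaling itself holds near 0, and -0.26 with upper-quartile factors. Without the large symptomatic library the count was 90 genes, 86 of them among the 407, and without the medium one it was 224, with 197 among the 407. DESeq2 called 517 genes with a more even split, 313 higher and 204 lower. At an unadjusted p under 0.05 in edgeR the split was also more even, with 1536 genes higher (11.5%) and 1301 lower (9.74%).

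The genes that rose covered a wide span of levels in asymptomatic caecum, and 168 of the 320 had a mean under 10 CPM there (52.5%, against 58.2% of all genes tested). Their fold change exceeded 4 in 299 of the 320, 8 in 169, 16 in 86 and 64 in 14. In 299 of the 320 both symptomatic libraries lay above all 7 asymptomatic ones, which was so for 11.1% of all genes tested. In 242 they also lay above the other 8 asymptomatic caecum libraries of the series, from small, x-large and feeding animals, against 8.23% of all genes. The 320 genes were chosen by a test on the same symptomatic libraries, so neither count is a separate test of the rise. These genes together took 8.05% of the gene reads in the large symptomatic animal and 3.25% in the medium one. The same genes took 0.530% to 1.14% in the 7 asymptomatic animals. Most members were high in both symptomatic animals, but by unequal amounts. By the ratio of CPM + 1, 175 were within 2-fold of each other in the 2 symptomatic libraries. Another 52 were more than 4-fold higher in the large animal and 8 were more than 4-fold higher in the medium one. The same counts were not made over all genes tested, so they are not read as a trait of the called genes.

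**Figure D1:**
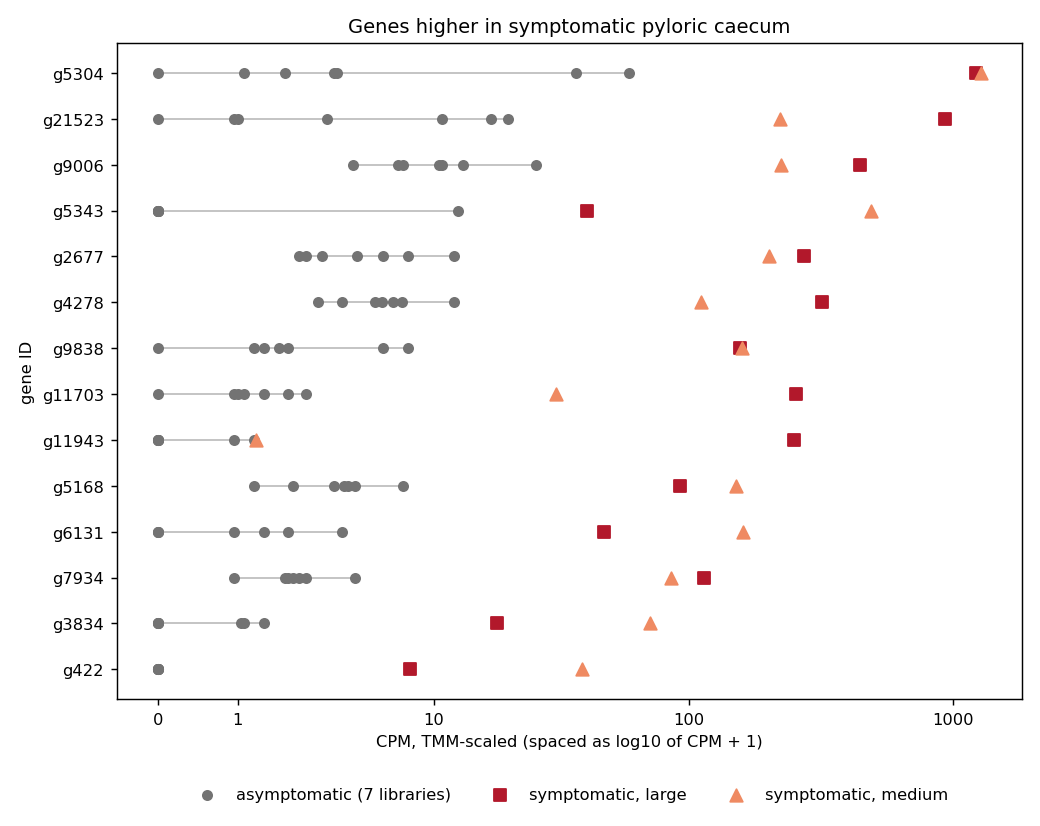
Level of 14 genes that rose in symptomatic pyloric caecum, in CPM scaled by TMM factors and spaced as log10 of CPM + 1, for each library; grey points are the 7 asymptomatic animals (points at 0 lie on top of each other), the square is the large and the triangle the medium symptomatic animal. The symptomatic values lie to the right of the grey points in every row, which the choice of genes required for all but g9006. The gap is wide except for g11943, where the medium animal, at 1.34 CPM, is next to the highest asymptomatic library.

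The smallest p-values among the genes that rose belonged to genes that were low in every asymptomatic animal and high in both symptomatic ones. Gene g7934 stood at 114 CPM in the large and 85.5 CPM in the medium symptomatic library, against 0.931, 2.23 and 4.54 CPM as the lowest, median and highest asymptomatic values. Both symptomatic values were far outside the asymptomatic range, with a log2 difference of 5.35 ± 0.42 (SE; edgeR adjusted p = 2.22e-06). Gene g2677 stood at 275 and 202 CPM against 2.40, 4.66 and 12.1 CPM, with a log2 fold change at 5.37 ± 0.45 (adjusted p = 2.6e-06, edgeR). Gene g4278 was higher in the large animal, at 320 CPM, than in the medium one, at 111 CPM, with asymptomatic values of 3.03, 6.01 and 12.1 CPM (5.07 ± 0.44, adjusted p = 3.03e-06, edgeR). For g5168 the order of the symptomatic animals was the opposite, 92.8 CPM in the large and 151 CPM in the medium one, above 1.31, 4.05 and 7.45 CPM (4.88 ± 0.43, adjusted p = 3.03e-06, edgeR). Only genes whose groups did not overlap were eligible to be named by size or p-value. Each of these 4 stayed past the threshold in every alternative processing tried, batch as a covariate included.

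Among the genes named for the size of their change, g5304 was raised to nearly the same level in both animals. It reached 1229 CPM in the large and 1283 CPM in the medium symptomatic library, against 0, 3.60 and 58.9 CPM as the lowest, median and highest asymptomatic values (log2 fold change 6.35 ± 0.91, adjusted p = 0.000233, edgeR). The asymptomatic animals themselves spread from no read to 58.9 CPM, and the call ended in a fit made robust to genes of outlying spread (adjusted p = 0.0244, edgeR) and with batch as a covariate (adjusted p = 0.0323). Gene g6131 stood at 47.5 and 160 CPM against 0, 0.931 and 3.94 CPM (6.33 ± 0.63, adjusted p = 6.82e-06, edgeR). Gene g9838 stood at 157 and 159 CPM against 0, 1.86 and 7.82 CPM (5.63 ± 0.53, adjusted p = 3.65e-06, edgeR). Both g6131 and g9838 kept the call in every alternative.

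Other large changes were uneven between the symptomatic animals. Gene g21523 reached 936 CPM in the large and 222 CPM in the medium animal, against 0, 3.35 and 19.97 CPM (6.23 ± 0.75, adjusted p = 5.28e-05, edgeR), with an adjusted p of 0.0434 once batch was a covariate. Gene g11703 reached 255 and 30.7 CPM against 0, 1.12 and 2.63 CPM (6.63 ± 0.62, adjusted p = 3.65e-06, edgeR), and its log2 fold change was 4.36 without the large symptomatic library. Both genes were several times higher in the large animal, and in both the medium animal was still above the asymptomatic range. Gene g11943 rested on the large animal, with 251 CPM there and 1.34 CPM in the medium one, against 0, 0 and 1.31 CPM. Its ratio of reads was 421 (95% interval 115 to 3499, counting error only), from 2 reads in the asymptomatic group, and its adjusted p was 0.0403 in limma-voom with sample weights and 0.0382 in edgeR with batch. Without the large symptomatic library the gene was below the filter on low counts.

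Gene g5343 showed the reverse, at 491 CPM in the medium and 40.7 CPM in the large animal. It had no read in 6 of the 7 asymptomatic libraries and 12.6 CPM in the other (log2 fold change 7.01 ± 0.94, adjusted p = 0.000131, edgeR). Without the medium symptomatic library the log2 fold change was 4.23 and the adjusted p 0.0423, and without the asymptomatic library that held its reads the log2 fold change was 10.83. The call of g5343 also ended with DESeq2 (adjusted p = 0.275), in the robust fit (0.0149), with batch (0.0135), and with McClures Beach animals only (0.0591) or brown animals only (0.0924). Gene g3834 stood at 70.8 CPM in the medium and 18.1 CPM in the large animal against 0, 0 and 1.51 CPM, a ratio of reads of 86.9 (95% interval 28.5 to 432, counting error only; adjusted p = 2.8e-05, edgeR). Its log2 fold change was 6.13, and 4.76 without the medium symptomatic library. With McClures Beach or brown animals only, its adjusted p was 0.0149 or 0.0278 (edgeR).

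In 6 of the genes that rose, no read was seen in any of the 7 asymptomatic libraries. Gene g422 had 7.92 CPM in the large and 38.8 CPM in the medium symptomatic library, at least 45.3-fold higher against a floor of 3 reads over the asymptomatic group (adjusted p = 0.000905, edgeR). It did reach 30.3 CPM in the other 8 asymptomatic libraries, where its adjusted p was 0.438, and against all 15 asymptomatic libraries it was 0.158. On the same 9 libraries DESeq2 gave g422 an adjusted p of 0.328, and in edgeR it was 0.0429 with batch, 0.0672 with McClures Beach animals only and 0.0906 with brown animals only. Of the other 5, which were named after their values were seen, g4256 had 10.2 and 6.68 CPM (at least 17.6-fold, adjusted p = 0.00844, edgeR). That call was near the threshold, and ended on leaving out any 1 asymptomatic library (adjusted p = 0.0106 to 0.0145), with DESeq2 (0.0182) and with batch (0.217). The remaining 4 had reads in the large symptomatic animal alone: g12728 at 126 CPM, g12729 at 112 CPM, g13338 at 58.8 CPM and g18908 at 36.2 CPM, all at 0 in the medium one. Their calls describe that animal, not the symptomatic group, and ended with DESeq2 (adjusted p = 0.197 to 0.369), limma-voom (0.0684 to 0.0748), the robust fit (0.147 to 0.419) and batch (0.0153 to 0.0969).

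A few of the genes that rose had a high CPM in asymptomatic caecum already. Only 8 of the 320 had an asymptomatic mean of at least 100 CPM (2.50%), a level reached by 668 of the 13364 genes tested. Gene g20608, singled out after its values were seen, went from 653, 1003 and 2788 CPM as the lowest, median and highest asymptomatic values to 20694 CPM in the large and 6583 CPM in the medium symptomatic animal (log2 fold change 3.26 ± 0.46, adjusted p = 0.000233, edgeR). Both symptomatic values lay above every asymptomatic caecum library of the series. Gene g5459, also one of the 8, stood at 2606 and 1540 CPM against 102, 321 and 586 CPM (2.63 ± 0.50, adjusted p = 0.00292, edgeR). Neither call held with batch (adjusted p = 0.0523 for g20608 and 0.126 for g5459) or without the large symptomatic library (0.0612 and 0.108). That of g5459 also ended with brown animals only (0.0108), against the other 8 asymptomatic libraries (0.0113) and at a minimum fold of 2 (0.0279).

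The genes that fell were fewer, but more of them came from genes with a high CPM in asymptomatic caecum. The fall exceeded 4-fold in all 87, 8-fold in 63 and 16-fold in 30. In each of the 87 both symptomatic libraries lay below all 7 asymptomatic ones, against 7.85% of all genes tested. In 78 of them they also lay below the other 8 asymptomatic caecum libraries, against 4.83% of all genes. The 87 genes were chosen by a test on the same symptomatic libraries, so neither count is a separate test of the fall. An asymptomatic mean of at least 100 CPM was found in 35 of the 87 (40.2%), against 668 of the 13364 genes tested. Only 1 of the 87 had a mean under 10 CPM (1.15%, against 58.2% of all genes tested). A higher mean also makes a fall easier to detect. Together the 87 genes took 0.179% and 0.137% of the gene reads in the large and medium symptomatic animals and 1.09% to 2.002% in the asymptomatic ones. In the symptomatic pair 11 of the 87 had no read in either library and 67 had reads in both, and 44 of those 67 were within 2-fold of each other in CPM. The same counts were not made over all genes tested.

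**Figure D2:**
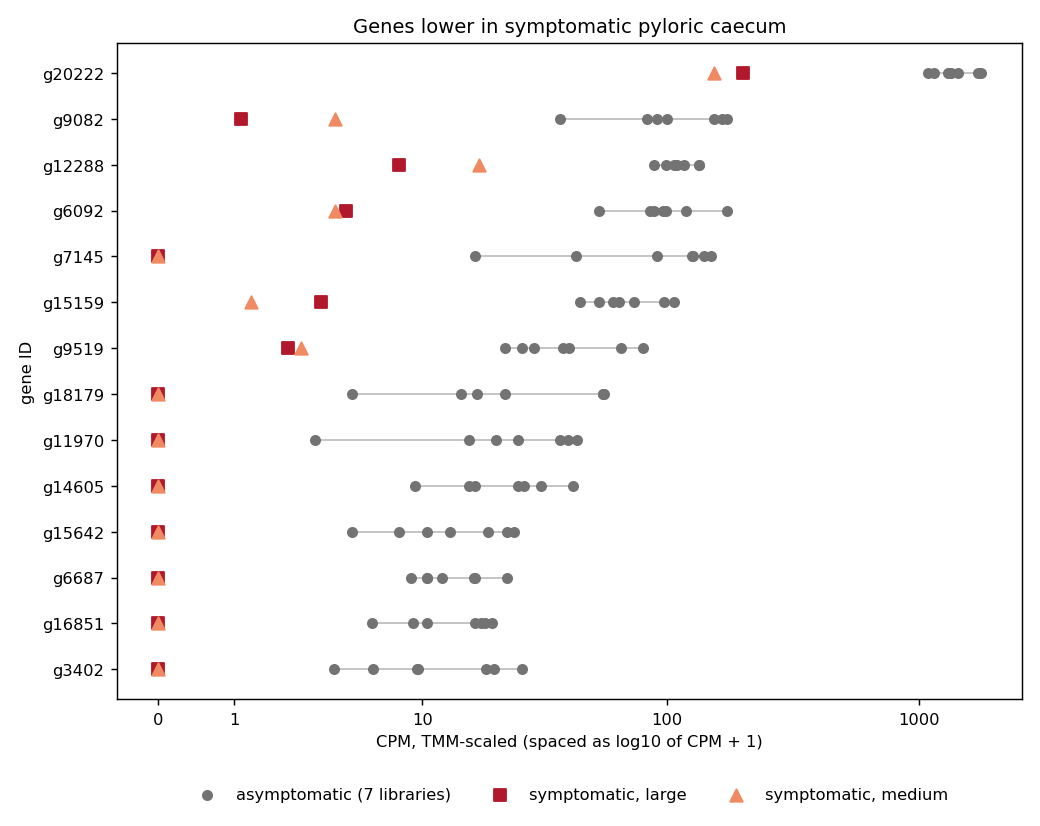
Level of 14 genes that fell in symptomatic pyloric caecum, in CPM scaled by TMM factors and spaced as log10 of CPM + 1, for each library; grey points are the 7 asymptomatic animals, the square is the large and the triangle the medium symptomatic animal. In every row both symptomatic values lie to the left of all grey points, which the choice of genes required for all but g9519 and g12288. In 8 rows both are at 0.

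Complete loss of reads was seen for 11 of these genes, and 8 of them were named for the size of their change. Gene g7145 had 16.8, 127 and 150 CPM as the lowest, median and highest asymptomatic values and no read in either symptomatic animal, at least 53.7-fold lower against a floor of 3 reads over the symptomatic group (adjusted p = 0.000527, edgeR). It was also read in each of the other 8 asymptomatic caecum libraries, at 6.76 to 170 CPM. Gene g18179 went from 4.80, 22.4 and 56.1 CPM to 0, at least 17.4-fold lower (adjusted p = 0.00577, edgeR). Gene g11970 went from 3.15, 25.1 and 43.9 CPM to 0, at least 14.2-fold lower (adjusted p = 0.00457, edgeR). Every asymptomatic library of the 7 held reads of these genes, but g18179 and g11970 had none in at least 1 of the other 8, so that the groups overlapped there (adjusted p = 0.0816 and 0.125 against those 8, edgeR). The fall was at least 12.5-fold for g14605, 8.03-fold for g15642, 7.77-fold for g3402, 7.59-fold for g6687 and 7.50-fold for g16851, with edgeR adjusted p-values from 0.00142 to 0.00946.

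Except for g7145, these losses of reads needed both symptomatic libraries to pass the threshold. Without the large symptomatic animal the adjusted p was 0.0211 for g7145, 0.0858 for g11970, 0.038 for g14605, 0.0964 for g15642, 0.0676 for g16851, 0.0991 for g18179, 0.133 for g3402 and 0.0524 for g6687 (edgeR). Without the medium one g7145 stayed past the threshold, and the others stood at 0.0428 for g11970, 0.0151 for g14605, 0.0478 for g15642, 0.032 for g16851, 0.0494 for g18179, 0.069 for g3402 and 0.0238 for g6687. Gene g3402, which was nearest the threshold, also passed beyond it on leaving out any of asymptomatic libraries 1 to 6 (adjusted p = 0.0101 to 0.0152), and g18179 did so without asymptomatic library 4 (adjusted p = 0.0123). All 8 calls ended with McClures Beach animals only (adjusted p = 0.013 to 0.0508), with brown animals only (0.0119 to 0.0599) and against the other 8 asymptomatic libraries (0.015 to 0.125), and all but that of g7145 ended with batch (0.0153 to 0.0674). Those of g18179, g11970, g15642 and g3402 also ended in limma-voom (0.0123 to 0.0367), against all 15 asymptomatic libraries (0.0119 to 0.0424) and at a minimum fold of 2 (0.0131 to 0.0263).

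The smallest p-values among the genes that fell came from genes with reads in both groups. Gene g15159 stood at 3.39 CPM in the large and 1.34 CPM in the medium symptomatic animal, against 45.2, 64.3 and 108 CPM (log2 fold change -4.81 ± 0.67, adjusted p = 0.000207, edgeR). Gene g6092 stood at 4.53 and 4.01 CPM against 53.6, 97.1 and 174 CPM (-4.54 ± 0.64, adjusted p = 0.000229, edgeR). Both genes were close to the detection limit in the symptomatic animals and clearly read in all 7 others. Gene g9082 stood at 1.13 and 4.01 CPM against 37.4, 101 and 174 CPM (-5.46 ± 0.82, adjusted p = 0.000369, edgeR). Gene g20222 stood at 200 and 155 CPM against 1078, 1338 and 1756 CPM (-2.97 ± 0.46, adjusted p = 0.000488, edgeR). Without the large symptomatic library the adjusted p was 0.0126 for g6092, 0.026 for g9082 and 0.0126 for g20222, and without the medium one it was 0.0119 for g20222. With brown animals only all 4 calls ended (adjusted p = 0.0113 to 0.0178), with McClures Beach animals only those of g15159 (0.0104) and g20222 (0.0138), and that of g20222 also with batch (0.0263) and against the other 8 asymptomatic libraries (0.0211).

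The genes that take the most reads in the caecum did not pass the test. Gene g13155, which held more reads than any other gene in the asymptomatic libraries, stood at 274150 CPM in the large and 625390 CPM in the medium symptomatic animal, against 74245, 219500 and 263350 CPM (log2 fold change 1.18 ± 0.40, adjusted p = 0.0799, edgeR). Both values were above the range of these 7 asymptomatic libraries, but the large animal only by a small margin. In the other 8 asymptomatic caecum libraries g13155 reached 462890 CPM, and the large symptomatic animal was within their range. As a share of gene reads g13155 took 25.9% and 42.3%, against 10.5% to 25.9%, with an exact two-sided permutation p of 0.0556, the smallest that 2 against 7 libraries can give, and 0.417 after adjustment over 10 library measures. The next 4 genes by asymptomatic mean, g5054, g7444, g15 and g18995, had log2 fold changes of 0.18, 0.39, -0.70 and -0.55 with adjusted p-values of 0.813, 0.702, 0.544 and 0.514 (edgeR). With the reads of g13155 left out of the library sizes 402 genes passed, 395 of them among the 407.

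Genes that mark the caecum were examined as a check of the label and for a general loss of the tissue's own transcripts. A list of 100 caecum-enriched genes, taken from 21 libraries of the 8 other asymptomatic animals, took 15.5% of the gene reads in the large and 12.2% in the medium symptomatic library, against 14.3% to 20.6% in the asymptomatic ones. The groups overlapped (exact two-sided permutation p = 0.111, adjusted p = 0.417). Gene g13155 is not among the 100, although its asymptomatic median was 219500 CPM in caecum, 1778 CPM in dermis and 642 CPM in tube feet. The list thus does not stand for all transcripts of the caecum. The reads of g13155 are in the total, so its higher share in the symptomatic libraries lowers that of the list. All 100 genes were tested, 77 had a negative log2 fold change and the median was -0.39, beside -0.08 over all genes, or -0.77 without the medium symptomatic library. Of the 100, 4 fell, 1 rose and 95 did not pass the test. At an unadjusted p under 0.05, 26 were lower and 4 higher, against 9.74% and 11.5% of all genes tested, and DESeq2 called 14 lower and 1 higher, against 1.53% and 2.34%.

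The members of the caecum list that passed are named because they are few. Gene g17165 stood at 109 and 100 CPM in the large and medium symptomatic animals against 433, 523 and 773 CPM (log2 fold change -2.49 ± 0.47, adjusted p = 0.00245, edgeR). Gene g11682 stood at 11.3 and 14.7 CPM against 41.3, 138 and 186 CPM (-3.20 ± 0.67, adjusted p = 0.00586, edgeR). The other 2 that fell were g10129 (-3.01) and g10679 (-2.48). The gene that rose, g4878, stood at 146 and 194 CPM against 10.5, 33.6 and 49.4 CPM (2.30 ± 0.42, adjusted p = 0.00224, edgeR). Its symptomatic values were above all 7 of these asymptomatic libraries, and the other 8 reached 130 CPM. All 5 of these calls ended with batch (adjusted p = 0.0177 to 0.0864), against the other 8 asymptomatic libraries (0.0162 to 0.406), and on leaving out the large (0.0235 to 0.125) or the medium symptomatic library (0.0317 to 0.0959). They also ended with McClures Beach animals only (0.0259 to 0.0893), brown animals only (0.0362 to 0.119) and a minimum fold of 2 (0.0198 to 0.0487).

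**Figure D3:**
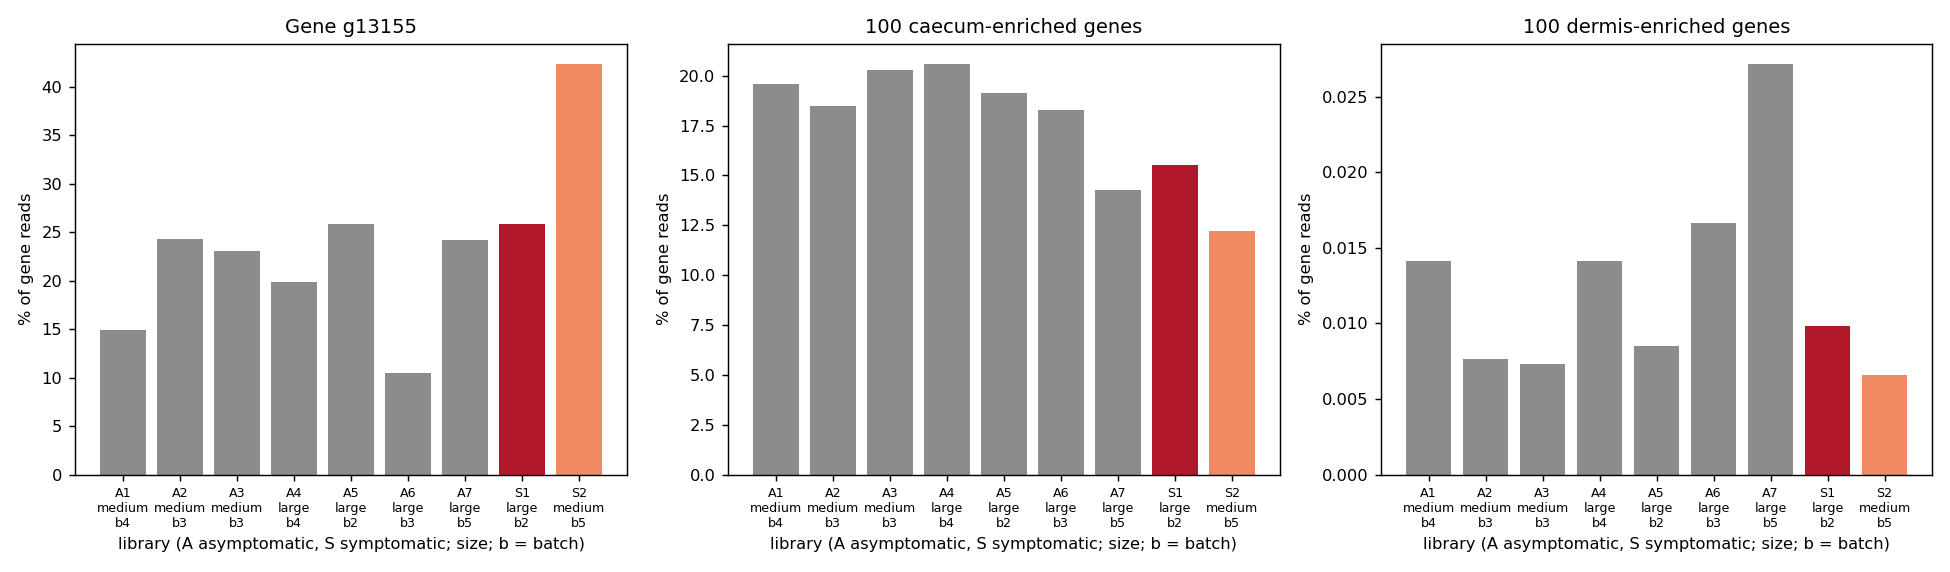
Share of gene reads, in percent, taken by gene g13155, by 100 caecum-enriched genes and by 100 dermis-enriched genes in each pyloric caecum library; grey bars are the 7 asymptomatic animals, the last 2 bars the large and medium symptomatic animals, with size class and batch under each bar. The medium symptomatic animal has the highest g13155 share, 42.3%, and the lowest caecum share, 12.2%. Both are shares of the same gene reads and g13155 is not among the 100 genes, so a higher g13155 share lowers the caecum share. The dermis share stays under 0.03% in every library.

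Transcripts of the other sampled tissues were at trace levels in all 9 libraries. The list of 100 dermis-enriched genes took 0.00983% and 0.00660% of the gene reads in the large and medium symptomatic caecum, against 0.00729% to 0.0271% in the asymptomatic ones, and 77 and 82 of its genes had no read in the symptomatic libraries. The tube feet list took 0.0195% and 0.00724%, against 0.00929% to 0.0270%. Symptomatic and asymptomatic values overlapped for both lists. Of the dermis list 17 genes and of the tube feet list 29 were tested, and none passed in edgeR or DESeq2. At an unadjusted p under 0.05 in edgeR, 3 dermis genes were higher (17.6%) and 1 lower (5.88%), and 1 tube feet gene was lower (3.45%) and none higher, beside 11.5% higher and 9.74% lower over all genes.

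Genes that differed between small and x-large asymptomatic animals outside this comparison were also read here, 18 higher and 44 lower in small animals of 12641 tested. Those animals differed in colour and batch too, so the lists are not of size alone. Of 18 genes higher in small animals none passed in the wasting test with edgeR, 6 were lower at an unadjusted p under 0.05 (33.3%, against 9.74% of all genes), DESeq2 called 1 lower, and the median log2 fold change was -0.43, or -2.61 without the medium symptomatic library. Of 44 genes lower in small animals 1 rose, g13608 (2.27%, against 2.39% of all genes), and 1 fell, g16916 (2.27%, against 0.651%). At an unadjusted p under 0.05 in edgeR 15 were lower (34.1%) and 5 higher (11.4%), against 9.74% and 11.5% of all genes. This list had 32 negative values and a median of -1.24, or -2.58 without the large symptomatic library. Gene g13608 stood at 186 and 58.8 CPM in the large and medium symptomatic animals against 2.10, 6.52 and 19.7 CPM (4.01 ± 0.55, adjusted p = 0.000188, edgeR). Gene g16916 stood at 29.4 and 54.8 CPM against 189, 295 and 366 CPM (-2.78 ± 0.52, adjusted p = 0.0024, edgeR). Both calls ended with batch (adjusted p = 0.0205 for g13608 and 0.0665 for g16916), against the other 8 asymptomatic libraries (0.062 and 0.311) and without the large symptomatic library (0.0424 and 0.0819). That of g16916 also ended without the medium one (0.0128), against all 15 asymptomatic libraries (0.108), with McClures Beach (0.0143) or brown animals only (0.022) and at a minimum fold of 2 (0.016). With size class as a covariate 412 genes passed, close to the 407 without it.

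The next comparison asked whether the 2 symptomatic animals showed the same difference, each against asymptomatic animals of its own size class. The large symptomatic animal differed from the 4 large asymptomatic ones in 195 genes (1.46%), 183 higher (1.37%) and 12 lower (0.0898%). The medium one differed from the 3 medium asymptomatic ones in 26 genes, all higher (0.195%), with none lower in edgeR, although 705 were lower at an unadjusted p under 0.05 and DESeq2 called 19 lower. These contrasts share no library, and each has 1 symptomatic animal whose spread was taken to be that of the asymptomatic groups. Both came from 1 fit of 4 groups and share the estimated spread of each gene, so their p-values are not independent. Without asymptomatic library 1 the medium contrast called 0 genes and without library 2 it called 6 (1160 and 1397 genes had an unadjusted p under 0.05). Without asymptomatic library 4 or 6 the large contrast called 96 or 110.

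The directions were largely shared. Of the 183 genes that rose in the large animals, 167 were also higher in the medium contrast (91.3%, against 45.8% of all genes), 128 of them at an unadjusted p under 0.05 (69.9%, against 5.22% of all genes), and 21 passed there. Their median log2 fold change was 4.12 in the large and 2.35 in the medium animals. All 26 genes that rose in the medium animals were higher in the large contrast (46.3% of all genes) with an unadjusted p under 0.05 (9.29% of all genes), and 21 passed (1.37% of all genes). All 12 genes that fell in the large animals were lower in the medium ones (53.9% of all genes), 11 at an unadjusted p under 0.05 (5.28% of all genes). A direct test of the difference between the size classes called 0 genes in edgeR, with 500 at an unadjusted p under 0.05, and 0 in DESeq2, with 235. A difference that misses the threshold with 1 symptomatic animal a class does not show that the animals responded alike.

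**Figure D4:**
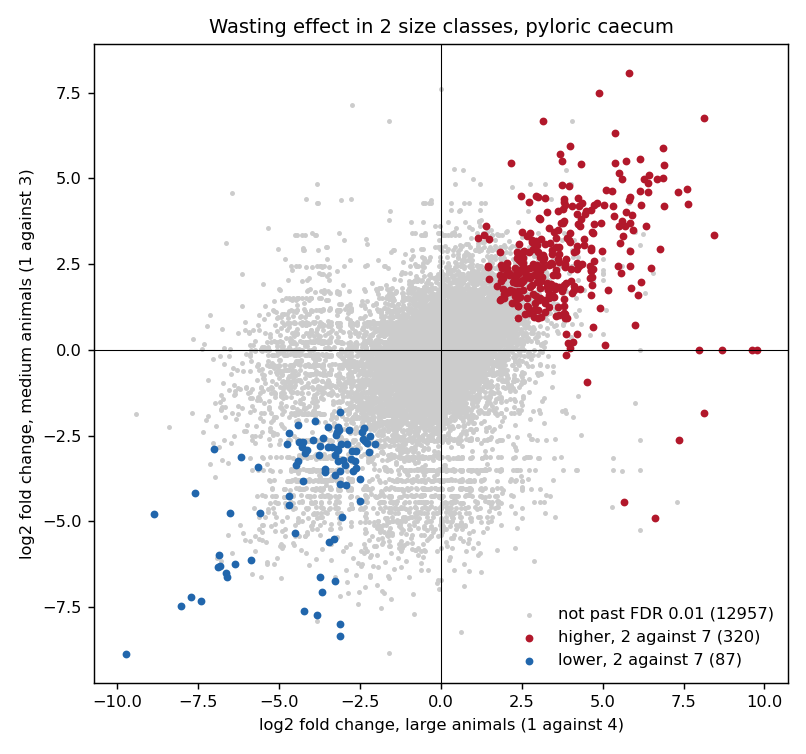
Log2 fold change of symptomatic against asymptomatic pyloric caecum in large animals (horizontal axis, 1 against 4) and medium animals (vertical axis, 1 against 3) for 13364 genes; red and blue points are the 320 genes higher and 87 lower in the joint comparison of 2 against 7, which used the same libraries, and grey points are all others. Red points lie mostly in the upper right and blue points in the lower left, with a few red points at or below 0 on the vertical axis, which rest on the large animal.

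The 21 genes that rose in both size classes included several of those above. Gene g2677 had a log2 fold change of 5.37 ± 0.60 in the large and 5.45 ± 0.69 in the medium animals (adjusted p = 9.92e-05 and 0.00169, edgeR). For g9838 the values were 5.73 ± 0.75 and 5.51 ± 0.81 (adjusted p = 0.000241 and 0.00323). These estimates differed by less than their standard errors. Gene g19882, singled out after its values were seen, stood at 3401 CPM in the large and 2304 CPM in the medium symptomatic animal, against 14.9, 36.4 and 114 CPM in the 7 asymptomatic ones. Its log2 fold change was 6.69 ± 0.64 in the large and 4.98 ± 0.68 in the medium animals (adjusted p = 2.96e-05 and 0.0028, edgeR).

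Batch was read within the 2 batches that held animals of both kinds. In batch 2 the large symptomatic animal could be set against 1 large asymptomatic animal of the same site, and in batch 5 the medium symptomatic animal against 1 large asymptomatic animal of Lifeboat House. All 320 genes that rose were higher in the batch 2 pair, with a median log2 ratio of 3.21, and 308 were higher in the batch 5 pair, with a median of 2.45, against 50.9% and 50.7% of all genes. By the ratio of CPM + 1, both pairs differed by more than 2-fold for 283 of the 320 (8.25% of all genes) and for all 87 genes that fell (8.70% of all genes). These libraries also entered the choice of the 407 genes, so the pairs describe where the difference lay and are no separate test of it. With batch as a covariate, which leaves few degrees of freedom, 26 genes passed, 19 higher (0.142%) and 7 lower (0.0524%), all among the 407. All 407 kept their direction in that fit, 317 of the 320 and all 87 at an unadjusted p under 0.05 (6.57% and 6.05% of all genes). Batches 3 and 4 held no symptomatic library, so the status effect in that fit came from the same 2 pairs. The kept directions are therefore no separate test either.

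The caecum was then set beside the dermis and tube feet of the same 9 animals. Wasting was accompanied by many changes in dermis, where 349 of 13679 genes passed (2.55%), 225 higher (1.64%) and 124 lower (0.906%), and by few in tube feet, where 18 of 15086 passed (0.119%), 15 higher (0.0994%) and 3 lower (0.0199%). CPM values were scaled within each tissue. The tissues share their animals, so the values that follow describe the caecum genes in the other tissues of the same individuals. All tissues of the large symptomatic animal were labelled batch 2 and all of the medium one batch 5. In most asymptomatic animals the tissues carried different batch labels. Batch was in none of the fits of dermis, tube feet or tissue differences, so its part in a shared direction was not tested. Of the 320 genes that rose in caecum 302 were tested in dermis, where 270 were higher (89.4%, against 47.8% of all genes) and 85 passed, which is 28.1% of the caecum genes and 41.9% of the dermis genes that could be compared. Their median log2 fold change in dermis was 1.55. In tube feet 242 of 300 were higher (80.7%, against 48.3% of all genes), 5 passed, and the median was 0.49. Of the genes that fell, 52 of 63 were lower in dermis (82.5%, against 52.2% of all genes), where 10 passed (15.9% of the caecum genes and 11.5% of the dermis genes), and 45 of 56 were lower in tube feet (80.4%, against 51.7%).

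The 5 genes that rose in all 3 tissues were g12499, g12500, g12779, g14718 and g19470. Gene g12499 stood at 22.6 and 94.9 CPM in the large and medium symptomatic caecum against 0, 1.01 and 12.6 CPM. In dermis it reached 3114 and 6855 CPM against 9.66, 20.1 and 228 CPM, and in tube feet 40.8 and 217 CPM against 5.01, 9.97 and 38.1 CPM. In each tissue both symptomatic animals were above all 7 asymptomatic ones, and in each the medium animal was the higher. Gene g19470 stood at 404 and 368 CPM in symptomatic caecum against 4.05, 13.4 and 44.1 CPM, with log2 fold changes of 4.56 ± 0.50 in caecum, 4.53 in dermis and 1.72 in tube feet. The caecum call of g19470 held in every alternative, while those of the other 4 ended with batch (adjusted p = 0.0345 to 0.246), with site as a covariate (0.0247 to 0.0514), with McClures Beach (0.2 to 0.262) or brown animals only (0.259 to 0.347) and without the medium symptomatic library (0.167 to 0.236). DESeq2 ended those of g12499, g12500 and g12779 (0.0938 to 0.201).

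**Figure D5:**
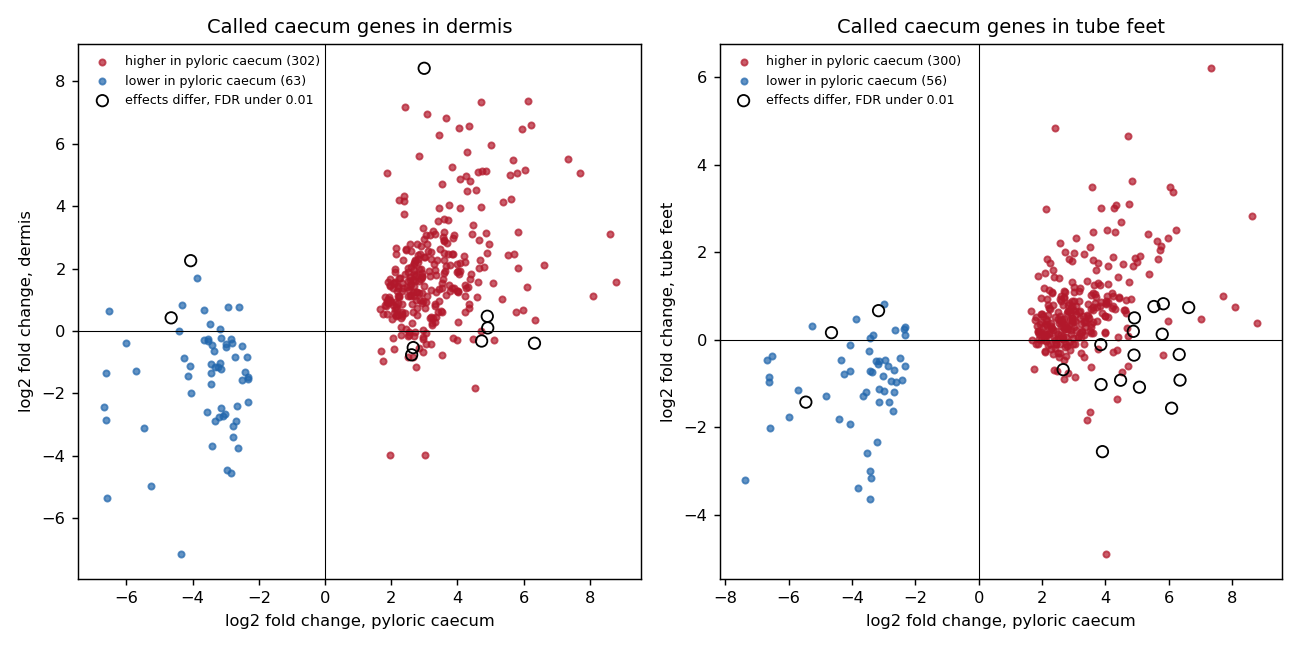
Log2 fold change of symptomatic against asymptomatic animals in pyloric caecum (horizontal axes) and in dermis or tube feet of the same 9 animals (vertical axes) for genes that passed in caecum and were tested in the other tissue; red points rose and blue points fell in caecum, and open circles mark genes whose change differed between the tissues at a false discovery rate under 0.01. Most red points lie above 0 in both panels, with a median of 1.55 in dermis and 0.49 in tube feet.

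Some changes were larger in the caecum by a direct test of the difference between tissues. In a fit of 27 libraries without an animal block, the effect of wasting differed between caecum and dermis for 16 of 15153 genes (0.106%). Of these 10 were higher (0.066%) and 6 lower (0.0396%) in caecum, and the count was 46 with the animal as a replicate block. Between caecum and tube feet the effect differed for 20 genes (0.132%), 16 higher (0.106%) and 4 lower (0.0264%), and for 61 with the block. These counts were small enough for 1 animal to move them: against dermis they were 1 without the large and 5 without the medium symptomatic animal and 10, 7 and 10 without asymptomatic animals 1, 4 and 6, and against tube feet 2, 5, 12 and 9 without the large or medium symptomatic animal or asymptomatic animals 4 or 6. Gene g9006 stood at 445 and 223 CPM in the large and medium symptomatic caecum against 4.47, 10.5 and 25.8 CPM, above every asymptomatic library (log2 fold change 4.90 ± 0.46, adjusted p = 3.65e-06, edgeR). In dermis it stood at 52.6 and 59.2 CPM against 28.4, 39.9 and 41.9 CPM, and in tube feet at 65.5 and 56.9 CPM against 51.8, 77.7 and 94.0 CPM. The effect was 4.36 higher on the log2 scale in caecum than in dermis (adjusted p = 0.000115, edgeR) and 5.21 higher than in tube feet (adjusted p = 4.26e-06). Without the large symptomatic animal the difference from dermis was 3.71, with an adjusted p of 0.0691.

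Gene g6131, described above in caecum, was read in asymptomatic dermis at 9.13, 34.6 and 52.8 CPM and in symptomatic dermis at 34.4 and 17.4 CPM. The dermis groups overlapped, and so did 1 of the 2 symptomatic tube feet values, 13.1 and 23.8 CPM against 16.7, 23.4 and 30.5 CPM. The effect in caecum was 6.66 higher than in dermis (adjusted p = 7.97e-05, edgeR) and 6.62 higher than in tube feet (adjusted p = 4.53e-05). Without the medium symptomatic animal these differences were 5.13 and 5.96, with adjusted p-values of 0.0432 and 0.0122. In asymptomatic animals g6131 was thus nearly unread in caecum and read in every library of both other tissues.

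For other genes the effect was more negative in caecum. Gene g9519 fell in caecum, at 2.26 and 2.67 CPM in the large and medium symptomatic animals against 22.3, 38.4 and 80.3 CPM (log2 fold change -4.06 ± 0.74, adjusted p = 0.00218, edgeR). In dermis it stood at 70.7 and 17.4 CPM against 0, 7.09 and 15.1 CPM, where it did not pass (adjusted p = 0.0223), and the effects differed by -6.39 (adjusted p = 0.000153). Both symptomatic values were below the asymptomatic range in caecum and above it in dermis. The caecum call had an adjusted p of 0.0674 without the large and 0.0317 without the medium symptomatic animal, and the difference had one of 0.309 without the large animal. It was 0.0382 in caecum with batch, 0.0412 with McClures Beach animals only and 0.0573 with brown animals only. Gene g13549 did not pass in caecum, at 12.4 and 5.35 CPM against 12.1, 19.0 and 44.1 CPM (adjusted p = 0.237, edgeR), and rose in dermis, at 121 and 13.9 CPM against 0, 0 and 1.18 CPM. Its effects differed by -8.42 (adjusted p = 0.000227), with 0.0691 without the large symptomatic animal.

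Gene g12288 fell in caecum, at 7.92 and 17.4 CPM in the large and medium symptomatic animals against 89.3, 110 and 135 CPM (log2 fold change -3.16 ± 0.52, adjusted p = 0.000838, edgeR). In tube feet it stood at 21.8 and 29.1 CPM against 9.97, 13.4 and 28.9 CPM, and the effects differed by -3.87 (adjusted p = 0.00101). The fall was seen in both symptomatic animals in caecum, and in tube feet the groups overlapped. Without the large symptomatic animal the adjusted p was 0.0428 in caecum and 0.217 for the difference, which stood at 0.0317 without the medium one. The caecum call also ended with batch (0.0307), with brown animals only (0.0103) and against the other 8 asymptomatic libraries (0.0105). Gene g2135 did not pass in caecum, at 2.26 and 1.34 CPM against 6.57, 14.9 and 33.4 CPM (adjusted p = 0.0194, edgeR). In tube feet it stood at 52.4 and 74.1 CPM against 17.9, 22.8 and 40.9 CPM, and the effects differed by -4.65 (adjusted p = 0.00383), with 0.217 and 0.171 on leaving out the large or the medium symptomatic animal.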

How the data were processed

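RNA was prepared with the Qiagen RNeasy Mini Kit and an Illumina TruSeq RNA kit, per the labels' protocols. The authors' deposited files hold raw counts for 21777 genes and 5 summary lines a library, which were left out of library sizes. Trim Galore 0.4.4, TopHat2 2.0.13, SAMtools 0.1.19 and edgeR are named in the submitters' processing notes. How reads were counted, whether by strand, and on which build is not given in the sources here.

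Counts were tested with edgeR 4.0.16 in R 4.3.3 (quasi-likelihood F-test, TMM factors, mean of at least 1 CPM, Benjamini-Hochberg false discovery rate under 0.01), with the filter and rate of the design text. DESeq2 1.42.0 and limma 3.58.1 were alternatives, with other scalings, filters, covariates and library sets. The filter kept at least 99.8% of gene reads, and the biological coefficient of variation was 0.465. A standard error is the log2 fold change over the root of F. The fits were tested on simulated data. Size-class contrasts came from 1 fit of 4 groups. The tissue comparison used 27 libraries of the same animals without an animal block, so tissues of 1 animal were treated as independent. The paired fit, with the individual named in the labels as a block, was the alternative.

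Genes were named by rule. One set came from genes past the threshold that averaged 10 CPM or more where higher and whose groups did not overlap. These were the 8 with the largest change and the 4 with the smallest p in each direction, and 4 that passed in both size classes. The 5 with the highest asymptomatic CPM were named whatever their test. The 2 in each direction per tissue difference were chosen by p among genes past that test's threshold that averaged 10 CPM or more in a compared group, with no rule on overlap. The comparison, the lists and the rule were chosen with earlier results of these data known. Feeding lists held 0 genes (edgeR) and are not described. Floors and intervals cover counting error only, since amplified reads are not independent molecules.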

Additional observations from a re-analysis of the deposited data

Results flagged for a closer look

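Among the 7 asymptomatic caecum libraries, 45 groups of values were searched for a library far from the rest, and 6 were found, where chance gives about 5% of groups. Gene g5343 was read at 12.6 CPM in asymptomatic library 3 and not in the other 6. Gene g15 stood at 45650 CPM in asymptomatic library 1, against a median of 12270 CPM. Gene g9006 stood at 25.8 CPM in asymptomatic library 4, against a median of 10.5 CPM, still far under the symptomatic values of 445 and 223 CPM. The same library had the fewest genes with a read, 11679 against a median of 13221. In asymptomatic library 6 the 10 most abundant genes took 24.5% of gene reads, against a median of 39.2%. In asymptomatic library 7, the animal from Lifeboat House, the 100 caecum-enriched genes took 14.3%, against a median of 19.1%, and the symptomatic animal of that site had 12.2%. Gene g13155, which is not among the 100, took 24.3% and 42.3% of the same gene reads in those libraries.

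The effect of wasting differed between tissues, by a direct test, for the genes named for that reason. On the log2 scale the effect in caecum minus that in dermis was 6.66 for g6131, 4.36 for g9006, -6.39 for g9519 and -8.42 for g13549. The effect in caecum minus that in tube feet was 6.62 for g6131, 5.21 for g9006, -3.87 for g12288 and -4.65 for g2135.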

How the results depend on the processing

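The count of 407 genes was within 1.5 times under 11 of the alternatives of scaling, filter, tool and covariate, and differed more under these: 167 genes at a minimum fold of 2, 983 at a false discovery rate of 0.05, 26 with batch as a covariate, 217 with McClures Beach animals only, 165 with brown animals only and 123 against the other 8 asymptomatic libraries. DESeq2 gave 313 higher and 204 lower, 60.5% higher against 78.6%. Upper-quartile scaling moved the median of all genes to -0.26 and gave 263 higher and 108 lower. Leaving out 1 library gave 90 to 431. The large contrast gave 448 at a rate of 0.05 and 96 to 230 without 1 library. The medium contrast gave 50 with DESeq2, 14 with filterByExpr, 91 at a rate of 0.05, 0 in a fit of that size class alone (1430 at an unadjusted p under 0.05) and 0 to 28 without 1 library.

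The tissue differences were tested without pairing in the main fit. The replicate block, which pairs by animal, gave 46 genes against dermis and 61 against tube feet. Without pairing, DESeq2 gave 41 and 64, and a rate of 0.05 gave 52 and 72. Leaving out 1 animal gave 1 to 22 and 2 to 25. The block ended none of the named calls.

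List medians were recomputed under every alternative, a choice made after seeing the data. The caecum list (-0.39) stood at -0.79 with McClures Beach animals, -0.76 with brown animals, -0.69 against all 15, -0.92 against the other 8 and -0.77 to -0.29 without 1 library. The dermis list (-0.15) stood at -1.10 without a filter, -0.94 against all 15 and -0.86 against the other 8, and ranged from -1.62 to 0.12 without 1 library. The tube feet list (-0.0046) stood at -0.95 without a filter, -0.43 with batch, 0.58 with McClures Beach animals, 0.66 with brown animals and -0.76 to 0.35 without 1 library. The genes higher in small animals (-0.43) stood at -2.74, -2.02, -1.54 and -1.99 with McClures Beach animals, brown animals, all 15 and the other 8, and at -2.61 to -0.31 without 1 library; those lower in small animals (-1.24) at -2.58 without symptomatic library 1. Among the named genes, direction turned for 2 uncalled ones: g5054 (-0.000825 with upper-quartile scaling, -0.075 against all 15, -0.27 against the other 8) and g7444 (-0.10 with McClures Beach animals, -0.27 with brown animals, -0.10 against the other 8, -0.19 to 0.71 without 1 library). Of the 28 called named genes 8 kept the call throughout; 17 lost it with brown animals only, 15 with batch, 14 with McClures Beach animals only, 11 against the other 8 asymptomatic libraries, and 13 or 10 without the large or the medium symptomatic library. Gene g11943, below the filter on low counts without the large symptomatic library, is not counted among the 13. The cause of these shifts was not tested. Depth limits the 11 losses of reads, whose bounds reach 5.03-fold to 53.7-fold.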

Other observations

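Called genes often had consecutive ID numbers. Of 293 genes that rose and had a tested gene at a neighbouring number, 54 had a neighbour that also rose (18.4%), against 3.71% of all 12255 genes with a tested neighbour. Of 82 genes that fell, 8 had a neighbour that fell (9.76%, against 1.09%). Runs of genes called higher were g4770 to g4773, g15732 to g15734 and g18908 to g18910. In the last run g18908 and g18910 were below the filter on low counts without the large symptomatic library, so their calls rest on that animal. The sources used here do not give what the order of the IDs stands for.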
